A study of Mus musculus with 6 samples.

Results

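Microglia are the resident macrophages of the brain. The 34 genes described here were chosen by name, as genes of microglia at rest or in their phagocytic state. No measured value entered the rule, but earlier results of these data were known when the choice was made. All 34 were found among the 24972 genes of the deposited table. Total RNA was sequenced from whole dissected mouse cortex at postnatal day 7 (P7), in 3 libraries labelled wildtype and 3 labelled Zmiz1 KO, written Zmiz1-KO here. Animals of both groups carried 2 floxed Zmiz1 alleles (Zmiz1f/f), and those labelled Zmiz1-KO also carried Emx1Cre, a Cre recombinase expressed from the Emx1 gene. Zmiz1 encodes a transcriptional cofactor. Emx1-driven Cre acts in the progenitors of the dorsal forebrain, from which the excitatory neurons, astrocytes and part of the oligodendrocytes of the cortex arise. Strain, litter and sex are not in the labels, and neither is whether a library was made from 1 animal, so the p-values below measure the spread between libraries, which may be technical in part.

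Microglia come from yolk sac progenitors that enter the brain in the embryo, and so lie outside the Emx1 lineage. They depend on the receptor Csf1r and on the transcription factors Spi1 and Irf8, they survey the tissue through purinergic receptors and the fractalkine receptor Cx3cr1, and in the early postnatal brain they take up dying cells and myelin debris and tag synapses with complement. In bulk RNA, a gene read almost only in microglia reports both their number and their RNA per cell, and fewer cells cannot be told apart from less RNA per cell.

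Values are counts per gene that the authors normalized between libraries, called normalized counts. They summed to between 32661979 and 33239707 per library, and the most common low value, taken as the worth of 1 read, gave an estimated depth of 15494272 to 17857835 reads. Zmiz1 had 8119, 7929 and 7461 normalized counts in wildtype, against 9944, 9779 and 9660 under the Zmiz1-KO label, so the gene that the label gives as deleted was read more often there (limma adjusted p = 0.00125). The table holds no value per exon, and every direction below is one between libraries as labelled. By Xist and the Y-linked Ddx3y, wildtype replicate 3 and Zmiz1-KO replicate 2 came from females and the other 4 libraries from males.

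All 34 genes were read in all 6 libraries, from 21.9 normalized counts, for Gpnmb in Zmiz1-KO replicate 2, to 11402, for Ctsb in Zmiz1-KO replicate 1. Levels between genes were compared per kilobase (kb) of exon, with the exons of all annotated transcripts of a gene merged. This length, from 667 bases for Tyrobp to 10478 for Lpl, can exceed that of the transcripts present. The order between genes thus depends in part on the annotation. In wildtype the level per kb was highest for Ctsd (2852 ± 67.7, SD, n = 3) and Ctsb (1839 ± 17.7), the genes of lysosomal proteases that most cell types make. Next came the complement gene C1qa, at 403.5 ± 23.4 per kb, with Lpl at 374.9 ± 6.22 and C1qb at 364.5 ± 18.7, and Lpl and C1qb overlapped. Fcrls, an Fc receptor-like gene used to mark mouse microglia, had 295.9 ± 3.07 per kb. From Tyrobp (255.3) through Csf1r, C1qc, P2ry12, Ctss, Laptm5, Sall1, Cx3cr1 and Spp1 to Fcer1g (148.9), each gene overlapped its neighbour in the order. The microglial marker Tmem119 stood at 77.39 ± 14.3 per kb. The lowest levels were those of Irf8 (17.27 ± 2.56), Cd86 (10.36 ± 2.71) and Gpnmb (8.354 ± 2.92), and Cd86 and Gpnmb overlapped. The defining markers Tmem119, P2ry12, Cx3cr1, Csf1r, Fcrls and Siglech were thus present in every library, whereas 12 markers of blood leukocytes, among them those of neutrophils, monocytes, T cells and B cells, reached at most 11.98 normalized counts in any library and none passed the filter on low values.

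**Figure D1:**
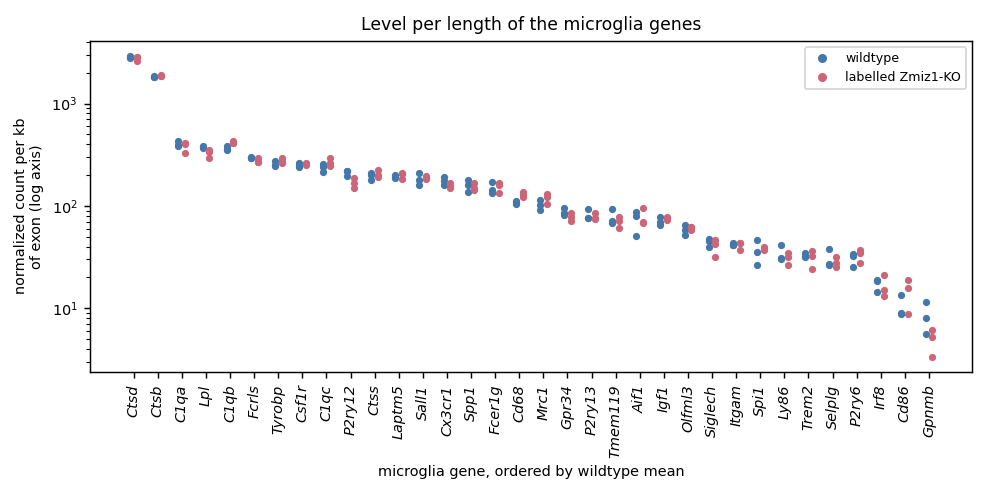
Normalized count per kb of exon (log axis) of the 34 microglia genes, ordered by wildtype mean, with 1 point per library, 3 in wildtype and 3 labelled Zmiz1-KO. Ctsd and Ctsb stand far above the other genes, Cd86 and Gpnmb are lowest, and the points of both groups overlap for 30 of the 34 genes.

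No microglia gene passed the threshold between the 2 groups. Of the 34 genes, 0 were called higher and 0 lower under the Zmiz1-KO label, at a threshold of 0.05 on the adjusted p (limma, Benjamini-Hochberg adjustment over 15800 genes), where 0.165% of all genes tested were called higher and 0.247% lower. limma-voom also called 0. At a threshold of 0.1 the count was again 0, against 0.671% of all genes tested. At an unadjusted p under 0.05 there were 4 (11.8%), namely Lpl, P2ry12, Gpnmb and C1qb, against 11.0% of all genes tested. In 4 genes (11.8%) the groups did not overlap, against 16.3% of all genes tested. Of these, 2 were higher in all libraries labelled Zmiz1-KO (C1qb and Cd68), against 8.10% of all genes tested, and 2 were lower in all of them (P2ry12 and Lpl), against 8.16%. The log2 fold changes of the 34 genes split evenly, 17 above 0 and 17 below 0, with a median of -0.0026 against -0.00018 over all genes tested. Without 1 library, Zmiz1-KO replicate 2, Lpl was called lower (limma adjusted p = 0.0236), and with any other library left out the count stayed at 0.

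**Figure D2:**
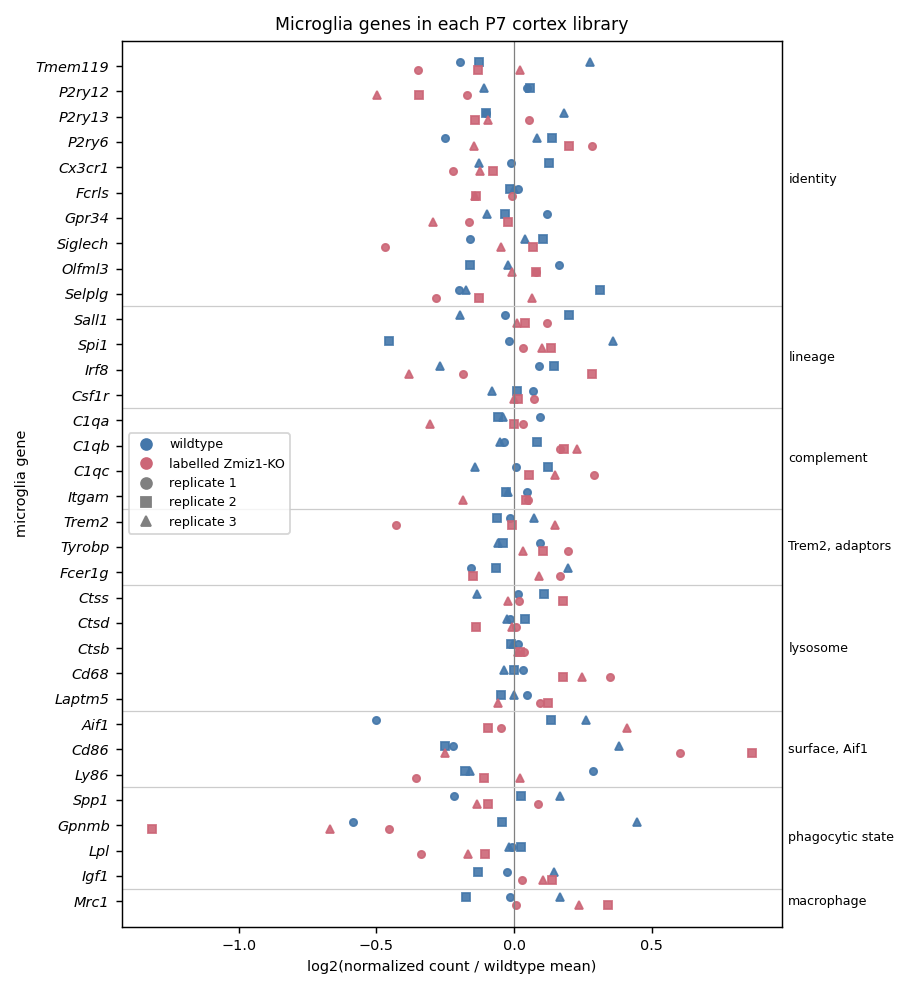
Each of the 34 microglia genes in each of the 6 libraries, as log2 of its normalized count over the wildtype mean, with symbols for replicates 1 to 3 and genes grouped by role. Wildtype and Zmiz1-KO points intermix for most genes, those of P2ry12 and Lpl separate to the left and those of C1qb and Cd68 to the right, and Cd86 and Gpnmb spread most.

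The precision differed between genes with their depth. The unadjusted 95% interval of the difference (limma) lay within a 1.5-fold change in either direction for 32 of the 34 genes. The 2 others were Cd86, whose interval ran from -0.22 to 1.08 on the log2 scale, and Gpnmb, from -1.39 to -0.07. For Csf1r, the receptor on which microglia depend, the interval was -0.09 to 0.15, and for Ctsb -0.05 to 0.10. The coefficient of variation over all 6 libraries was below that expected from counting the estimated reads alone for 10 genes, among them Itgam (6.03% against 9.77%) and Ctsb (1.18% against 1.33%), and at most 2 times as large for 29. The other 5 were Lpl (9.10% against 2.33%), Mrc1 (13.0% against 5.32%), Ctsd (4.06% against 1.74%), P2ry12 (14.7% against 6.43%) and Sall1 (9.26% against 4.53%). These coefficients include any difference between the groups.

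**Figure D3:**
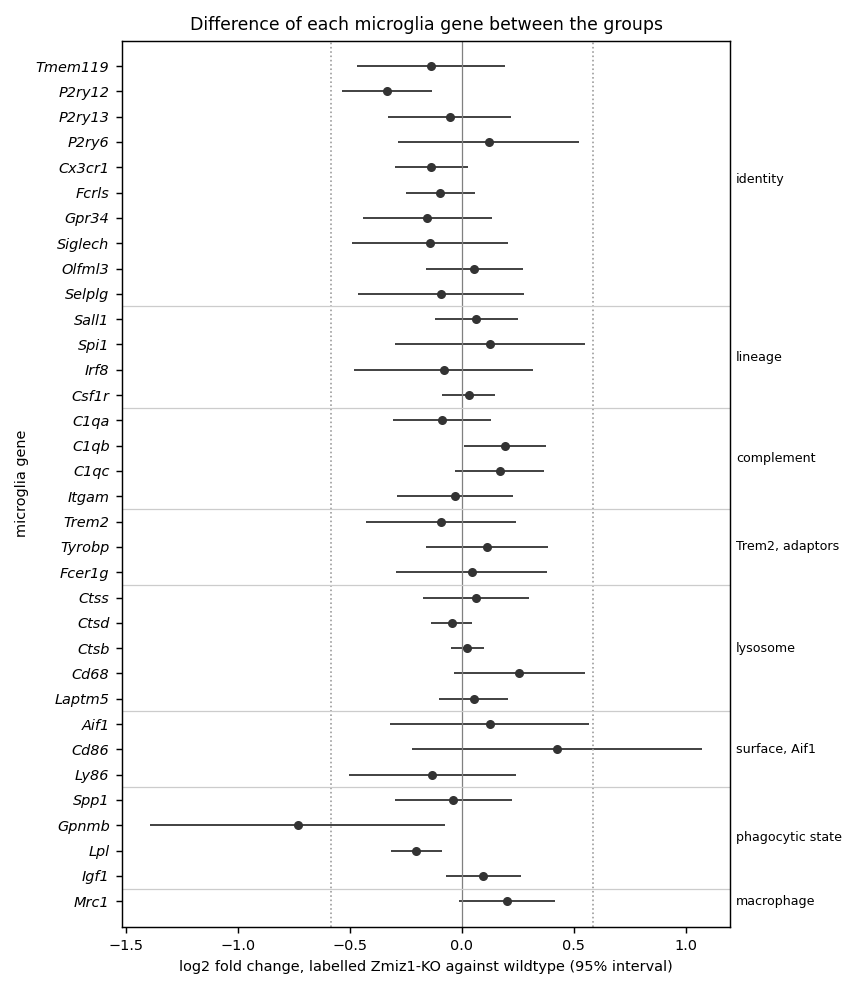
Log2 fold change of each microglia gene between the libraries labelled Zmiz1-KO and wildtype (x axis, 3 libraries per group), with bars for the unadjusted 95% interval from limma and dotted lines at a 1.5-fold change. The intervals of 32 genes stay between the dotted lines, and those of P2ry12, Lpl, Gpnmb and C1qb leave out 0.

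The identity of resting microglia is marked by 10 of the genes, and among these P2ry12 had the largest fold change. P2ry12, the ADP receptor that steers microglial processes towards ATP released by other cells, had 558, 563 and 501 normalized counts in wildtype, against 481, 425 and 383 under the Zmiz1-KO label. All 3 wildtype libraries lay above the others. The means were 541 ± 34.3 and 430 ± 48.7 (SD, n = 3 per group), a difference of -20.5% or -0.33 on the log2 scale (SE, the standard error, 0.095), which did not pass the threshold (limma adjusted p = 0.178). P2ry12 lies on chromosome 3 of GRCm38 from 59216272 to 59262871, inside the larger gene Med12l on the opposite strand, with which its exons overlap. Of the 75-base stretches of its transcripts, 0% also occur in transcripts of other genes. P2ry13, a related ADP receptor, is its neighbour from 59207892 to 59210882 and also lies within Med12l. P2ry13 had 193, 193 and 235 normalized counts in wildtype, against 215, 187 and 194 under the Zmiz1-KO label. These values overlapped throughout, a difference of -0.05 on the log2 scale (SE 0.13). The ratio of P2ry12 to P2ry13 was 2.89, 2.92 and 2.14 in wildtype, against 2.24, 2.27 and 1.98 in the Zmiz1-KO-labelled group, and so overlapped as well.

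The 250 bases before the start of each of these neighbours, of which P2ry12 separated the groups and P2ry13 did not, are given here from RefSeq (GRCm38.p6), 5′ to 3′ on the gene's own strand, with matches to GAGGAA on either strand in capitals. These letters are the core of the sequence that the myeloid factor PU.1, the product of Spi1, is known to bind. The starts are those of RefSeq and can differ from the GENCODE coordinates. For P2ry12 the window begins at 59262986, beyond the gene's end at 59262871 given above, and the bases between were not searched.
P2ry12 (chr3:59262986-59263235, strand -): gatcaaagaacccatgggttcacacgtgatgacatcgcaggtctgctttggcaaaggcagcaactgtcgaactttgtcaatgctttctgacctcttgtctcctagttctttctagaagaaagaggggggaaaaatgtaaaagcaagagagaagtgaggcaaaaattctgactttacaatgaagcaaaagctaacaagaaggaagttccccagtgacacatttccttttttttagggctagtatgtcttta
P2ry13 (chr3:59210883-59211132, strand -): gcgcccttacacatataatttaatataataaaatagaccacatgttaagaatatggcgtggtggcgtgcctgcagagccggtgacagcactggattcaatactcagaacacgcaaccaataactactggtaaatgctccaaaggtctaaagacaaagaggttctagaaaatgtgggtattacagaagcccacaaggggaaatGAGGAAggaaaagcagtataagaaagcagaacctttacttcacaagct
P2ry13 held 1 match, starting 48 bases before the gene's start, and P2ry12 held no exact match. Looser forms of GAGGAA were not searched, and whether a match bears on the values was not tested. A match is a description and not a site. Over all 32851 such windows, 23.3% held GAGGAA. Of the 34 genes, 23 had at least 1 window in the table, 27 windows in all, and 13 of these 27 held it.

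Among the other identity genes the groups overlapped throughout. Tmem119, a membrane protein that sets microglia apart from other macrophages, had 156, 164 and 217 normalized counts in wildtype, against 141, 164 and 182 under the Zmiz1-KO label, so that the highest value was that of wildtype replicate 3. Its log2 fold change of -0.14 (SE 0.16) was 0.01 without that library. Cx3cr1, the receptor for neuronal fractalkine, had 786, 864 and 724 normalized counts in wildtype and 679, 751 and 727 in the other group, or -0.14 on the log2 scale (SE 0.078, limma adjusted p = 0.556), and -0.07 without wildtype replicate 2. Only wildtype replicate 3 fell within the range of the libraries labelled Zmiz1-KO. The orphan receptor gene Gpr34 (-0.16), the lectin gene Siglech (-0.14), Fcrls (-0.10) and Selplg (-0.09), which encodes a ligand of selectins, were also lower by log2 fold change, and the secreted protein gene Olfml3 (0.06) and the UDP receptor gene P2ry6 (0.12) were higher. Altogether 8 of the 10 identity genes were lower, with a median log2 fold change of -0.12, where 50.1% of all genes tested were below 0, and 0 of the 10 passed the threshold. Their summed level ran from 3256 to 3386 normalized counts in wildtype and from 2979 to 3092 in the libraries labelled Zmiz1-KO, without overlap. Of single genes, 8.16% of all tested were lower without overlap, and no such share was computed for sums. The 10 genes were read in the same libraries, so they are not independent observations. Over the alternatives tried, 6 to 8 of the 10 were lower and the median ran from -0.12 to -0.07.

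The 4 regulators of the lineage overlapped between the groups, 3 with a log2 fold change above 0 and 1 below. Csf1r had 1526, 1465 and 1375 normalized counts in wildtype, against 1530, 1470 and 1456 under the Zmiz1-KO label, or 0.03 on the log2 scale (SE 0.056, limma adjusted p = 0.902). The groups overlapped, and wildtype replicate 3 was lowest. Reads of Csf1r on chromosome 18 are not wholly its own, since 13.9% of the 75-base stretches of its transcripts also occur in Hmgxb3 on the opposite strand, and the library kit does not mark strand. Spi1, the gene of PU.1, had 96.3, 71.2 and 125 normalized counts in wildtype and 99.9, 107 and 105 in the other group, where the values lay close together and within the wider wildtype range. Irf8, its partner, had a log2 fold change of -0.08 (SE 0.19). Sall1, a transcription factor that keeps microglial identity and that neural cells also use, had 933, 1097 and 833 normalized counts in wildtype, against 1036, 980 and 963 under the Zmiz1-KO label (log2 fold change 0.07, SE 0.086), again inside the wildtype range. P2ry12 per Csf1r, a ratio within a library, was 0.366, 0.384 and 0.364 in wildtype, against 0.314, 0.289 and 0.263 under the Zmiz1-KO label. Since Csf1r differed little between the groups, this ratio largely repeats the P2ry12 values and is no separate observation. The stretches that Csf1r shares with Hmgxb3 enter it as well.

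The genes of C1q, the protein that starts the classical complement cascade and marks synapses for removal, differed in the sign of their fold change, and none passed the threshold. C1qa, C1qb and C1qc encode the A, B and C chains of this protein and lie side by side on chromosome 4 of GRCm38, within 18675 bases from 136880129 to 136898803. C1qb had 387, 420 and 383 normalized counts in wildtype, against 445, 449 and 465 under the Zmiz1-KO label, without overlap. The means were 397 ± 20.4 and 453 ± 10.5 (SD, n = 3 per group), or 0.19 on the log2 scale (SE 0.087, limma adjusted p = 0.423). C1qc had 462, 500 and 416 normalized counts against 562, 477 and 509 (log2 fold change 0.17, SE 0.093, limma adjusted p = 0.541, and 0.10 without wildtype replicate 3), and only Zmiz1-KO replicate 2 fell within the wildtype range. C1qa had 448, 403 and 408 normalized counts against 429, 420 and 340, a difference of -0.09 on the log2 scale (SE 0.10) that was 0.02 without Zmiz1-KO replicate 3. That library held the lowest C1qa and the highest C1qb value of all 6. Its ratio of C1qb to C1qa was 1.37, against 0.865 to 1.07 in the other 5 libraries. Itgam, a subunit of the complement receptor CR3, had a log2 fold change of -0.03 (SE 0.12), but 65.2% of the 75-base stretches of its transcripts also occur in the overlapping gene Gm49368, so its value is uncertain.

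The 250 bases before C1qb and C1qc, neighbours that were both higher by fold change, and before Cd68, the other gene without overlap in that direction, are given in the same way, with capitals for GAGGAA or its longer form GAGGAAGT on either strand. No window was available for C1qa, so it could not be set beside its neighbours.
C1qb (chr4:136886201-136886450, strand -): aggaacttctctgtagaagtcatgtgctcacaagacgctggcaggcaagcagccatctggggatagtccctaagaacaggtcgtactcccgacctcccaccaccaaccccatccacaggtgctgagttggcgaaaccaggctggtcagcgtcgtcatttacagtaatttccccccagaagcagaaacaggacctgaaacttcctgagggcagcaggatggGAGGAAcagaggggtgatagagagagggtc
C1qc (chr4:136892915-136893164, strand -): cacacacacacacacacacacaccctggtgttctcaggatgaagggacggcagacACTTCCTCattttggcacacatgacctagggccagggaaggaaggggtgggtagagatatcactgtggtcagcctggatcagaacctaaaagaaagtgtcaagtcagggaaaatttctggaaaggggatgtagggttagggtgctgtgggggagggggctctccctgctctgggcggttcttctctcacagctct
Cd68 (chr11:69666171-69666420, strand -): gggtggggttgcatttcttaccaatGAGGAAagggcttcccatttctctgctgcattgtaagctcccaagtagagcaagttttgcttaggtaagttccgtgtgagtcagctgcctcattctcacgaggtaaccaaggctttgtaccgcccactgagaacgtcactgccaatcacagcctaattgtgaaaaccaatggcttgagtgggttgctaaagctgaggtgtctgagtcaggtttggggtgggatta
C1qc held the longer form GAGGAAGT on the opposite strand, which 2.44% of all windows hold and 2 of the 27 windows of microglia genes do (C1qc and Spp1). C1qb and Cd68 each held 1 match to the shorter form, starting 30 and 225 bases before the gene's start. The longer form contains the shorter one, so each of its matches counts under both. The C1qc window lies partly inside the gene as GENCODE places it, up to 136893065.

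Of the genes of phagocytosis and of the lysosome, none passed the threshold and Cd68 alone separated the groups. Cd68, a membrane glycoprotein of lysosomes in phagocytes, had 139, 136 and 132 normalized counts in wildtype, against 173, 153 and 161 under the Zmiz1-KO label, without overlap. Its difference of 19.7%, or 0.26 on the log2 scale (SE 0.14), did not pass the threshold (limma adjusted p = 0.528). The lysosomal membrane gene Laptm5 (0.05) and the protease genes Ctss (0.06), Ctsb (0.02) and Ctsd (-0.05) differed little by log2 fold change. Ctsd had 6641, 6887 and 6589 normalized counts in wildtype and 6741, 6100 and 6668 in the other group, where Zmiz1-KO replicate 2 alone was low. Of the transcript stretches of Ctsd, 31.3% are shared with the overlapping gene Gm49369, and of those of Ctsb, 11.8% with Fdft1. In a wider list of 16 lysosomal genes, 0 were called, 9 were higher and 7 lower, and the median log2 fold change was 0.01. Trem2, a receptor for lipids and debris, had 160, 155 and 170 normalized counts in wildtype, against 120, 161 and 179 under the Zmiz1-KO label, which enclosed the wildtype values. Tyrobp, the adaptor through which Trem2 signals, had 182, 166 and 163 against 195, 183 and 174 (log2 fold change 0.11, SE 0.13). The Fc receptor adaptor Fcer1g had a log2 fold change of 0.04 (SE 0.16).

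Of the genes of the phagocytic state seen in early postnatal white matter, Gpnmb and Lpl had, with P2ry12, the 3 lowest log2 fold changes of the 34 genes, and Spp1 and Igf1 overlapped between groups. Lpl, lipoprotein lipase, which in the brain is made by neurons as well as by phagocytic microglia, had 3906, 4002 and 3878 normalized counts in wildtype, against 3105, 3656 and 3497 under the Zmiz1-KO label. The groups did not overlap, and Zmiz1-KO replicate 1 was lowest. The means were 3928 ± 65.1 and 3419 ± 284 (SD, n = 3 per group), a difference of -13.0% or -0.20 on the log2 scale (SE 0.054, limma adjusted p = 0.151). This was the lowest adjusted p of the 34 genes, and over the alternatives it ran from 0.0236 to 0.534, the highest without Zmiz1-KO replicate 1, where the log2 fold change was -0.14. Gpnmb, a glycoprotein of lipid-laden phagocytes, had 36.3, 52.8 and 74.2 normalized counts in wildtype and 39.7, 21.9 and 34.3 in the other group, which overlapped, a difference of -0.73 on the log2 scale (SE 0.31, limma adjusted p = 0.387). Its highest wildtype value and its lowest Zmiz1-KO value came from the 2 female libraries, and the log2 fold change was -0.24 in males only and ran from -0.99 to -0.48 with a library left out, the latter without wildtype replicate 3. At an estimated 21.3 reads per library, counting alone would give a coefficient of variation of 21.6%. Spp1, osteopontin, of whose transcript stretches 8.55% are shared with Gm42793, had 224, 265 and 292 normalized counts in wildtype and 277, 244 and 237 in the other group, a difference of -0.04 on the log2 scale (SE 0.12). Igf1, a growth factor that supports neurons and myelin, had a log2 fold change of 0.10 (SE 0.079). Of 12 further genes of this state, Axl, Cd9, Cd63, Fabp5, Itgax, Lgals1, Lgals3 and Apoe passed the filter, 7 of them higher and 1 lower. Apoe, made mostly by astrocytes at this level, was called higher, with 23547, 24000 and 23300 normalized counts in wildtype, against 27697, 26487 and 27254 under the Zmiz1-KO label (log2 fold change 0.20, limma adjusted p = 0.0129). The state's markers Clec7a, Cst7, Ccl3 and Ccl4 stayed under the filter, at most 14.1 normalized counts in any library.

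The genes left in this group were low and variable. Aif1, which encodes the cytoskeletal protein Iba1 used to stain microglia, had 78.4, 122 and 133 normalized counts in wildtype, against 107, 104 and 148 under the Zmiz1-KO label, overlapping throughout (log2 fold change 0.12, SE 0.21). Cd86, a costimulatory ligand, had 32.5, 31.9 and 49.4 against 57.7, 69.0 and 31.9, so that its log2 fold change of 0.43 (SE 0.31, limma adjusted p = 0.660) rested on Zmiz1-KO replicates 1 and 2 and was 0.20 without replicate 2 and 0.75 without Zmiz1-KO replicate 3. Ly86, a partner of a Toll-like receptor homologue, had a log2 fold change of -0.13 (SE 0.18).

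**Figure D4:**
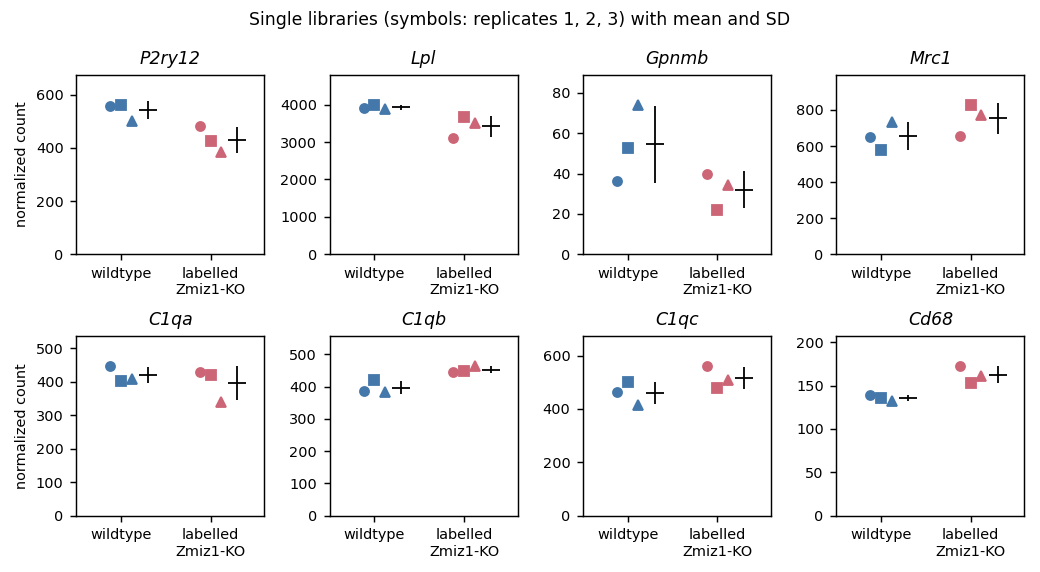
Normalized counts in each library for 8 microglia genes, each on its own axis from 0, with symbols for replicates 1 to 3 and bars for the mean and SD of 3 libraries. P2ry12 and Lpl are lower and C1qb and Cd68 higher in all 3 libraries labelled Zmiz1-KO, Gpnmb, Mrc1, C1qa and C1qc overlap, and C1qa is lowest in Zmiz1-KO replicate 3.

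Mrc1, the mannose receptor, marks the macrophages at the borders of the brain, along vessels and in the meninges, more than microglia. It had 648, 580 and 735 normalized counts in wildtype, against 658, 830 and 771 under the Zmiz1-KO label, overlapping, a difference of 0.20 on the log2 scale (SE 0.10, limma adjusted p = 0.493). With a library left out this ran from 0.12, without wildtype replicate 2, to 0.30, without Zmiz1-KO replicate 1, and it was 0.13 without Zmiz1-KO replicate 2. A list of 13 further genes of border macrophages was higher for 11 and lower for 2, with a median log2 fold change of 0.27, and 0 passed the threshold. The summed level of the list ran from 1836 to 2153 normalized counts in wildtype and from 2213 to 2337 in the libraries labelled Zmiz1-KO. F13a1, a clotting factor subunit gene of these macrophages singled out after its values were seen, had 276, 216 and 288 against 332, 325 and 372 normalized counts (log2 fold change 0.41, limma adjusted p = 0.205). Over the alternatives, 9 to 11 genes of the list were higher, with a median from 0.18 to 0.40. Of 7 markers of meningeal fibroblasts 6 were higher as well, with a summed level from 13350 to 15112 in wildtype and from 15825 to 16827 in the other group, and 1, the collagen gene Col1a2, was called (log2 fold change 0.32, limma adjusted p = 0.00464). Their median of 0.22 ran from 0.12, without Zmiz1-KO replicate 2, to 0.30 over the alternatives, and 0 were called without Zmiz1-KO replicate 3. Their part in the values of Mrc1, Cd68 and the C1q genes, which border macrophages also express, was not tested.

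A wider list of 40 microglia genes that are not among the 34 showed 0 called in either direction, and 0 with an unadjusted p under 0.05. In it 25 genes were lower and 15 higher, with a median log2 fold change of -0.05 that stayed between -0.06 and -0.03 over the alternatives, and its summed level ran from 10179 to 10594 normalized counts in wildtype and from 9894 to 10304 in the libraries labelled Zmiz1-KO.

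Genes through which other cells hold microglia in check or keep them alive were likewise not called. Of 10 ligands and checkpoint genes, 6 were higher and 4 lower, with a median log2 fold change of 0.01, and 4 had an unadjusted p under 0.05, against 11.0% of all genes tested. The ligands of Csf1r, Csf1 (0.07) and Il34 (0.01), overlapped between groups. Cx3cl1, the neuronal fractalkine, had 11283, 11190 and 11853 normalized counts in wildtype, against 12696, 11825 and 11928 under the Zmiz1-KO label (log2 fold change 0.09, limma adjusted p = 0.439). Cd200, a neuronal brake on microglia, had 9461, 8637 and 8553 against 8364, 8294 and 8101, without overlap (log2 fold change -0.10, limma adjusted p = 0.365). Mfge8 was also lower without overlap, with means of 5188 and 4830 (log2 fold change -0.10, limma adjusted p = 0.334). Cd47 overlapped (-0.19, limma adjusted p = 0.429). Of the 10 genes, 2 were lower without overlap and 0 higher, against 8.16% and 8.10% of all genes tested. The receptors gave 4 higher and 2 lower among the 6 tested, with 1 at an unadjusted p under 0.05. Without overlap, 2 were higher (Tgfbr2 and Sirpa) and 1 lower (Tgfbr1), against 8.10% and 8.16% of all genes tested. Tgfbr1, a receptor for the TGF-β that sustains the resting state and that many cells carry, had the lowest adjusted p. It had 1684, 1414 and 1488 against 1201, 1340 and 1316 normalized counts (log2 fold change -0.25, limma adjusted p = 0.168). Tgfbr2, also a receptor for TGF-β, went the other way, with 826, 794 and 716 against 834, 867 and 875 (log2 fold change 0.14, limma adjusted p = 0.486). Among 16 further complement genes 0 were called, with 10 higher, 6 lower and 4 at an unadjusted p under 0.05. C3ar1, a receptor for a fragment of C3 that microglia carry, had 89.4, 87.0 and 94.4 normalized counts against 67.6, 63.8 and 51.9, without overlap (log2 fold change -0.56, limma adjusted p = 0.280), and C3 itself stayed at or under 48.7 in every library. The genes named from these lists were picked with their values known.

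Markers of other cells were read beside these lists. Of 9 endothelial markers 0 were called, with a median log2 fold change of -0.04, and of 10 astrocyte markers 1 was called, the water channel gene Aqp4 (-0.29, limma adjusted p = 0.00499), with a median of -0.04. Of 10 genes of the oligodendrocyte lineage 8 were lower, as among the microglial identity genes, with a median of -0.16 and 0 called. In this lineage 5 had an unadjusted p under 0.05, against 1 identity gene and 11.0% of all genes tested. There 4 were lower without overlap, against 1 identity gene and 8.16% of all genes tested. The summed level of the lineage ran from 15989 to 18333 normalized counts in wildtype and from 15324 to 16098 in the libraries labelled Zmiz1-KO. Whether these lists moved with the microglia genes for a shared reason was not tested. Of 6 markers of excitatory neurons 1 was called, Emx1 itself (-0.53, limma adjusted p = 0.0150). Only the animals labelled Zmiz1-KO carried Cre expressed from this gene, so a difference in cells cannot be told apart from one of that allele. None of the 6 had a log2 fold change above 0, and the highest was 0, for Slc17a7. The median with Emx1 included was -0.12, as for the identity genes. Of 6 markers of inhibitory neurons 0 were called, 6 were higher and 4 had an unadjusted p under 0.05, with a median of 0.28 and a summed level from 12936 to 17129 in wildtype and from 17287 to 19323 in the libraries labelled Zmiz1-KO. Of 6 mural cell markers 5 were lower, with a median of -0.11 and 0 called, and of the 5 erythroid markers tested 3 were lower, with 0 called. The 6 choroid plexus markers, all with fold changes below 0 and 0 called, differed widely between libraries of the same group. Ttr, the most abundant of them, had 98.8, 7728 and 5871 normalized counts in wildtype, against 2874, 89.8 and 4468 under the Zmiz1-KO label, so that wildtype replicate 1 and Zmiz1-KO replicate 2 held little of this tissue.

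**Figure D5:**
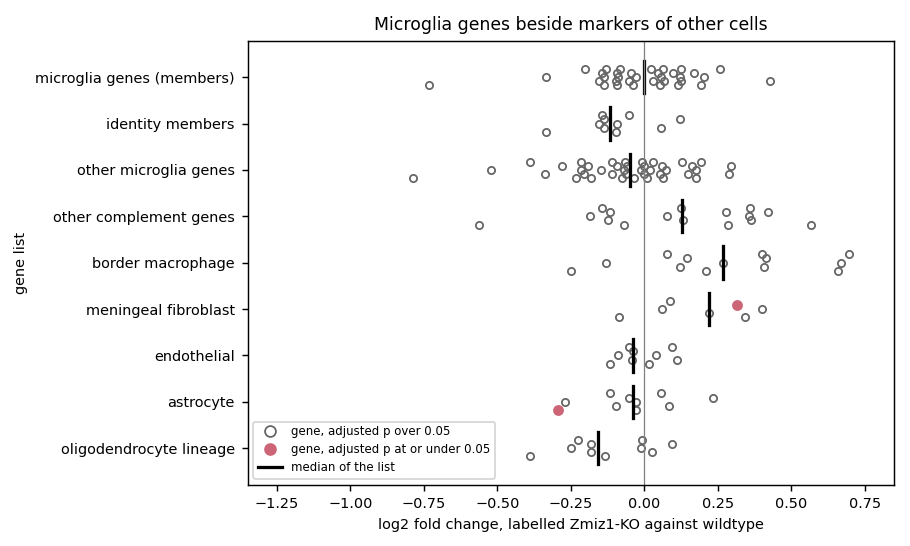
Log2 fold changes (x axis) of the microglia genes, of other genes of microglia and complement, and of markers of other cells in the cortex, 1 point per gene, with a bar at the median of each list and filled points for genes with an adjusted p at or under 0.05. The 34 microglia genes centre on 0 with their identity genes at -0.12, and border macrophage and meningeal fibroblast markers centre at 0.27 and 0.22.

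Sex was read from Xist and Ddx3y, with 1 female library per group, and the comparison was added after the data were seen. In the same fit as the group, 0 of the 34 microglia genes were called between female and male libraries (limma, lowest adjusted p of 1.00), against 0.108% of all genes tested, and 2 (5.88%) had an unadjusted p under 0.05, against 3.51%. In both groups the female library was above both males for 4 genes (11.8%), namely Mrc1, Igf1, Spi1 and Cd86, against 9.63% of all genes tested, and below both for 3 (8.82%), namely C1qc, Ctsd and Cd68, against 9.42%. These shares are near those over all genes. Mrc1 had 735 normalized counts in the wildtype female against 580 and 648 in the males, and 830 in the Zmiz1-KO female against 658 and 771 (female minus male 0.24 on the log2 scale, standard error 0.087, limma adjusted p = 1.00). Igf1 had 778 against 642 and 691 in wildtype, and 775 against 719 and 757 in the libraries labelled Zmiz1-KO.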

How the data were processed

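Total RNA of P7 cortex gave 6 libraries, made with the TruSeq RNA v2 kit, which does not mark strand. The authors used STAR for alignment and DESeq2 for normalization, both in Illumina BaseSpace, with mm10 as the build in the submitters' processing notes, and deposited the result as a signal table of normalized counts. Versions, gene annotation and counting settings are not given in the sources used here. Values that would stand for 1 read differed between genes of one library (15.4 to 23.0% of the values from 1 to 3 lay within 0.001 of the most common one), so whole reads were not recovered and no count test was run. Depth is thus an estimate, and counting errors taken from it cover counting only.

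The test took in the 15800 of 24972 genes that reached 10 in 3 libraries or more. Groups were compared on log2(value + 1) by limma 3.58.1 under R 4.3.3, with an intensity trend, robust estimation and Benjamini-Hochberg adjustment, two-sided, and fold changes are on this scale. A gene was called at an adjusted p at or under 0.05. With 3 libraries against 3, an exact permutation test cannot give a p below 0.1. Replicate numbers were not taken to pair the libraries in this fit.

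The genes, lists and tests were chosen with earlier results of these data known. All 34 genes are accounted for. Values per library are given for genes past the threshold, for those whose groups did not overlap and for Tmem119, P2ry12, Cx3cr1, Spi1, Csf1r, Sall1, C1qa, Trem2, Tyrobp, Ctsd, Cd68, Aif1, Spp1 and Mrc1. P2ry13, C1qc, Gpnmb, Cd86 and Igf1 were added after their values were seen. Coordinates, exon lengths and shared 75-base stretches come from GENCODE on GRCm38, and promoters from RefSeq. The plots were made in Python 3.11.15 using matplotlib 3.10.9.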

Additional observations from a re-analysis of the deposited data

How the results depend on the processing

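The alternatives were a pseudocount of 0.1 or 10, no filter or a value of at least 10 in all libraries, median-ratio or upper-quartile scaling, limma-voom, limma without robustness, a block for the replicate number, sex as a covariate, males only, an adjusted p of 0.1, and each library left out in turn. The number of microglia genes called higher was 0 under each of these. The number called lower was 1, Lpl, with the replicate block and ran from 0 to 1 with a library left out, being 1 without Zmiz1-KO replicate 2. Over all genes, 65 were called, and this became 17 without robustness, 168 with the replicate block, 146 in males only, 106 at an adjusted p of 0.1, and 12 to 151 with a library left out, the lowest without Zmiz1-KO replicate 3 and the highest without Zmiz1-KO replicate 2. It was 30 without wildtype replicate 1 and 17 without Zmiz1-KO replicate 1. The cause was not tested. Same-numbered libraries did not deviate together (correlations of -0.005, -0.113 and -0.006 across genes), so the numbers were not taken as pairs. These correlations cannot exclude a litter or preparation shared by same-numbered libraries, which the labels do not give. With a library left out, the median log2 fold change over the 34 genes lay between -0.0167 and 0.0236, the highest without Zmiz1-KO replicate 3.

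Of 374 values of single microglia genes under the 11 settings that change the fit or keep males only, 368 kept their direction and their side of the threshold. Lpl became a call with the replicate block, and 5 turned direction, all in males only, namely P2ry13 (0.08), Sall1 (-0.0185), Csf1r (-0.0026), Ctss (-0.0626) and Spp1 (0.0724). With a library left out, 17 genes turned direction, and their log2 fold changes ran over these ranges: Tmem119 (-0.226 to 0.0092), P2ry13 (-0.111 to 0.0395), Siglech (-0.252 to 0.0144), Olfml3 (-0.0208 to 0.141), Selplg (-0.184 to 0.0709), Sall1 (-0.0275 to 0.171), Spi1 (-0.0809 to 0.324), Irf8 (-0.27 to 0.0607), Csf1r (-0.0098 to 0.0649), C1qa (-0.15 to 0.0189), Itgam (-0.0691 to 0.0477), Trem2 (-0.215 to 0.0713), Fcer1g (-0.0285 to 0.146), Ctss (-0.0032 to 0.117), Aif1 (-0.106 to 0.272), Ly86 (-0.215 to 0.0198), Spp1 (-0.142 to 0.0494). None of these 17 was called in any fit. The estimated reads were fewest for Gpnmb (21.3) and Cd86 (23.0 per library), whose counting error was the highest.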

Other observations

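The ratio of C1qc to C1qb stayed between 1.06 and 1.26 over the 6 libraries, while that of C1qc to C1qa ran from 1.02 to 1.5, the highest being that of Zmiz1-KO replicate 3.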
